A study of Mus musculus with 6 samples.

Results

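Haemoglobin transcripts and markers of red blood cells were examined in whole mouse hearts of Hif1a mutant and control embryos. The set holds 8 genes chosen by symbol, namely the embryonic globins Hba-x, Hbb-y and Hbb-bh1, the adult-type alpha globins Hba-a1 and Hba-a2, and the erythroid genes Alas2, Slc4a1 and Klf1. All 8 are among the 15118 genes of the table. The 3 mutant hearts (5, 8 and 10) came from Black-Swiss embryos at E12.5 that carried the NKX2-5 Cre/WT driver together with Hif1a Null/flox. The 3 control hearts (2, 5 and 9) came from embryos of the same strain and stage with the driver and Hif1a WT/flox. All 6 embryos thus carried the Cre allele and a floxed Hif1a allele. Nkx2-5 is active in heart progenitors and heart muscle, where Cre can recombine the floxed allele, and cells without Cre activity keep it beside a null allele in mutant embryos or a wild-type allele in control embryos. The labels name separate hearts and nothing on litters, and p-values cover only the variation among these 6.

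Haemoglobin is a tetramer of alpha-type and beta-type chains. In the mouse embryo the first, primitive red cells arise in the yolk sac, circulate from the time the heart begins to beat and switch during maturation from Hba-x to Hba-a1 and Hba-a2 and from Hbb-bh1 to Hbb-y. Definitive red cells from the fetal liver use the adult alpha and adult beta genes. A dissected heart carries blood in its chambers and vessels, and the red cells there contribute these transcripts. HIF proteins are known for control of erythropoietin and of iron and haem genes. In bulk tissue, fewer red cells and less RNA per red cell cannot be told apart.

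Expression was measured as RPKM, the reads of a gene divided by the length of its constitutive exons and by the reads of the library. Steps in the low values implied between 101500000 reads (mutant 8) and 158800000 reads (mutant 10) per library. Log2 changes are mutant minus control and were taken after adding 1 to each RPKM, so low genes change by more than they show. Over all 13080 genes tested with limma, 107 (0.818%) passed an adjusted p of 0.05, with 55 higher (0.420%) and 52 lower (0.398%) in mutant hearts (57 and 34 with median centring, and 54 and 79 when libraries were rescaled to their total outside haemoglobin). The values of the genotypes did not overlap in 17.0% of tested genes, with mutant hearts above in 7.60% and below in 9.43%. Hif1a itself measured 75.7, 55.0 and 77.7 RPKM in mutants 5, 8 and 10, and 61.1, 46.4 and 46.4 RPKM in controls 2, 5 and 9, summed over its constitutive exons, so this value does not check the deletion. All 12 heart muscle markers were in the table, with summed levels of 21202 to 23036 RPKM in mutant and 19645 to 21464 RPKM in control hearts.

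Promoter sequence was available for 6 of the 8 members from RefSeq (GRCm38.p6), and for both adult beta globins. The 200 bases before the start of an embryonic and an adult gene of each globin class are shown, because these are the gene pairs whose levels are set against each other here. Capitals mark CACCC (the core of sites bound by KLF1), AGATAA or TGATAA (bound by GATA factors), CCAAT and TATAA, each searched on both strands, with no overlap in these sequences. The start is that of RefSeq, and GENCODE M21 begins these genes further upstream, so that 200 of the 200 bases of Hba-x, 161 of Hba-a1, 9 of Hbb-y and 168 of Hbb-b1 lie inside the gene as annotated there.
Hba-x (chr11:32276400-32276599, plus strand): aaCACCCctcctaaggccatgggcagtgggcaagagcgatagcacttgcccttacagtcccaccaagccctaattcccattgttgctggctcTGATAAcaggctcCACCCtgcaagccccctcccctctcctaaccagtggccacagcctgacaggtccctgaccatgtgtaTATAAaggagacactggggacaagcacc
Hba-a1 (chr11:32283472-32283671, plus strand): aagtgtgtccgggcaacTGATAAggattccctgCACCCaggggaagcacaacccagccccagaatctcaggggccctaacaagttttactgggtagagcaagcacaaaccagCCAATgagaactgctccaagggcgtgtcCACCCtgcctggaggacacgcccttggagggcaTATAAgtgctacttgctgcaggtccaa
Hbb-y (chr7:103853208-103853407, minus strand): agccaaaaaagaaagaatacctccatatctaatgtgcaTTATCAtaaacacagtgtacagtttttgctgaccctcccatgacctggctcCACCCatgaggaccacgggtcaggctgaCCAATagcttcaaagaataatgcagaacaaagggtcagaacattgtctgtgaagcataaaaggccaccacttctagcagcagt
Hbb-b1, Hbb-bs in RefSeq (chr7:103827929-103828128, minus strand): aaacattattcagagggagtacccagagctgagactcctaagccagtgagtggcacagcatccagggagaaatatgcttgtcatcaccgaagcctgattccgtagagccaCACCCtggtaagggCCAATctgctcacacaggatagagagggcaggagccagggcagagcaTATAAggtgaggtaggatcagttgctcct
Of the 6 members with sequence, 6 held CACCC and 6 held AGATAA or TGATAA within these 200 bases, against 44.9% and 13.5% of 27025 mouse promoters. CCAAT was found in 4 and TATAA in 3 of the 6, against 30.02% and 19.3% of promoters. ACGTG or GCGTG, the core of HIF sites, was found in 2, the near-identical Hba-a1 and Hba-a2, against 34.1% of promoters. These matches describe letters in a window and show no binding. In Hba-x the nearer CACCC began 95 and the TGATAA 108 bases before the start, and in Hbb-y the CACCC began 111 and the GATA match 162 bases before it.

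None of the 7 members that could be tested passed the threshold between mutant and control hearts (limma adjusted p between 0.664 and 0.995), against the 0.818% of all genes that did. None of the 7 had an unadjusted p under 0.05, against 11.2% of all genes, and in none of them were the genotypes apart. The members had 2 positive and 5 negative log2 changes, with a median of −0.025, beside −0.029 over all genes tested. The mutant hearts were spread more widely than the control hearts. Mutant 10 was the highest of the 6 hearts for 4 of the 7 tested members and mutant 5 the lowest for 6 of them. Of all tested genes 16.1% were highest in mutant 10 and 11.0% lowest in mutant 5.

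**Figure D1:**
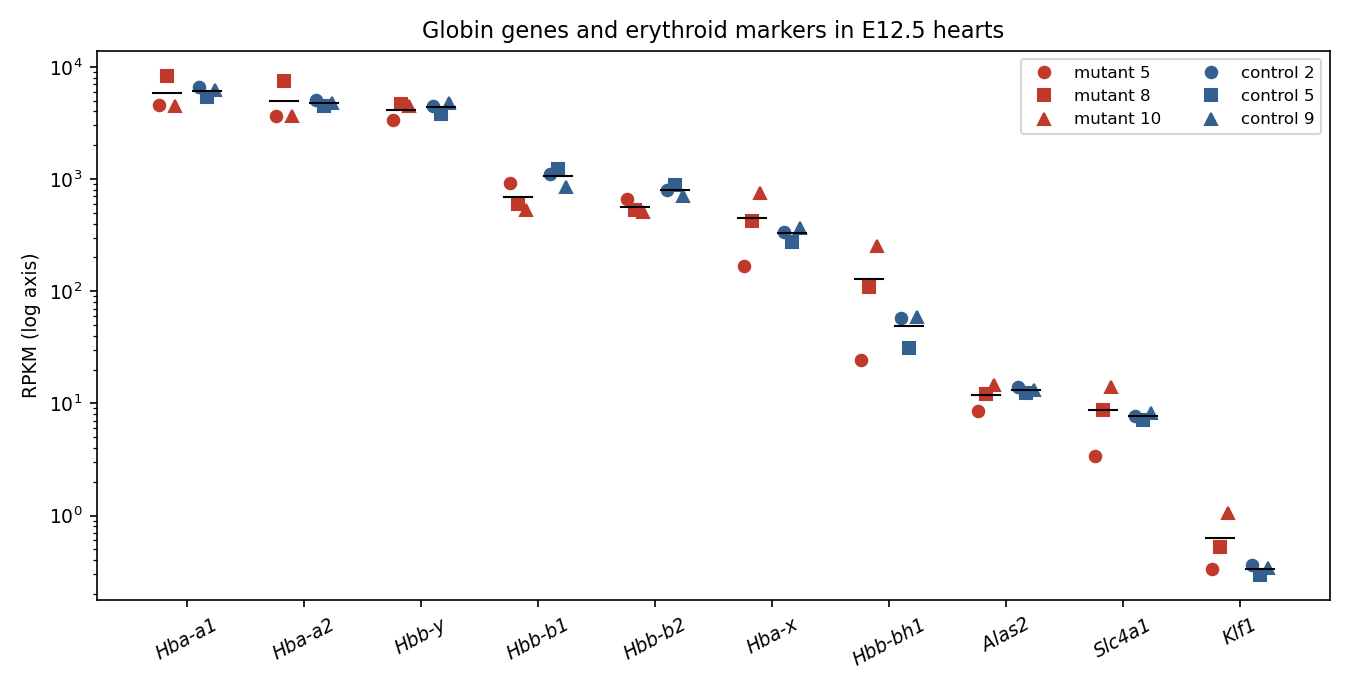
RPKM (log axis) of the 8 members and the adult beta globins Hbb-b1 and Hbb-b2 in each heart, mutant hearts in red left of control hearts in blue, with a black line at each mean of 3 hearts. Hbb-bh1 spans 24.3 to 251 RPKM in mutant hearts and 31.4 to 58.4 RPKM in control hearts.

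The embryonic alpha globin Hba-x (ENSMUSG00000055609, zeta globin, mm10 chr11:32276400-32278116) measured 168, 423 and 746 RPKM in mutants 5, 8 and 10, and 338, 276 and 365 RPKM in controls 2, 5 and 9. The mutant values lay on both sides of the control values, with mutants 8 and 10 above all control hearts and mutant 5 below them. The means were 446 ± 290 RPKM in mutant and 327 ± 45.5 RPKM in control hearts (SD, n = 3 each), and the log2 change was 0.21 ± 0.43 SE (limma adjusted p = 0.88). Without mutant 10 the change was −0.28.

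The embryonic beta-type globin Hbb-bh1 (ENSMUSG00000052217, chr7:103841637-103843164), the first beta-type gene of primitive red cells, had the widest spread of the set. It measured 24.3, 109 and 251 RPKM in mutants 5, 8 and 10, and 57.3, 31.4 and 58.4 RPKM in controls 2, 5 and 9. Within the mutant hearts the highest value was 10.3 times the lowest, against 1.86 times within the control hearts. The log2 change was 0.88 ± 0.68 SE (limma adjusted p = 0.66). Without mutant 5 it was 1.79 with an adjusted p = 0.046, past the threshold, and without mutant 10 it was 0.13. The adjusted p ranged from 0.046 to 0.95 over the settings tried.

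Hbb-y (ENSMUSG00000052187, epsilon-y globin, chr7:103851749-103853216), the main beta-type globin of maturing primitive cells, had the narrowest range over the mutant hearts among the members. It measured 3328, 4669 and 4457 RPKM in mutants 5, 8 and 10, and 4503, 3774 and 4738 RPKM in controls 2, 5 and 9. The mutant and control hearts overlapped over most of their range, and the log2 change was −0.07 ± 0.15 SE (limma adjusted p = 0.88). It was the most abundant beta-type globin in each of the 6 hearts.

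The adult-type alpha globins had the highest mean levels of the members. Hba-a1 (ENSMUSG00000069919, chr11:32283511-32284465) measured 4564, 8325 and 4508 RPKM in mutants 5, 8 and 10, and 6639, 5390 and 6197 RPKM in controls 2, 5 and 9. Hba-a2 (ENSMUSG00000069917, chr11:32296489-32297298) measured 3621, 7514 and 3678 RPKM in mutants 5, 8 and 10, and 5010, 4469 and 4709 RPKM in controls 2, 5 and 9. For both genes mutant 8 lay above and mutants 5 and 10 below all control hearts. The log2 changes were −0.12 ± 0.22 SE for Hba-a1 and −0.03 ± 0.25 SE for Hba-a2 (limma adjusted p = 0.86 and 0.98). Of the 50-base stretches of the longest Hba-a2 transcript 86.9% are also in Hba-a1, so the split of reads between the copies is uncertain and their sum is used from here on. No 50-base stretch was shared between Hba-x and these genes, and Hbb-y and Hbb-bh1 shared none with any other globin compared.

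Alas2 (ENSMUSG00000025270, chrX:150547375-150570638), the erythroid enzyme for the first step of haem synthesis, measured 8.50, 12.1 and 14.7 RPKM in mutants 5, 8 and 10, and 14.1, 12.46 and 13.1 RPKM in controls 2, 5 and 9. Mutant 5 stood below the other hearts. The log2 change was −0.19 ± 0.17 SE (limma adjusted p = 0.71). Slc4a1 (ENSMUSG00000006574, chr11:102348824-102366203), the anion exchanger band 3 of the red cell membrane, measured 3.37, 8.64 and 14.0 RPKM in mutants 5, 8 and 10, and 7.68, 7.04 and 8.23 RPKM in controls 2, 5 and 9. The mutant hearts enclosed the control hearts, with a change of −0.01 ± 0.36 SE (limma adjusted p = 0.995), which was 0.48 without mutant 5 and −0.41 without mutant 10. Hearts ranked by Slc4a1 stood in the same order as by Hba-x and by Hbb-bh1, with mutant 10 first, then mutant 8, controls 9, 2 and 5, and mutant 5 last, an order compared after the values were seen.

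Klf1 (ENSMUSG00000054191, chr8:84901928-84905291), the erythroid Krüppel-like factor that activates the adult beta globin gene, was low. It measured 0.334, 0.522 and 1.05 RPKM in mutants 5, 8 and 10, and 0.362, 0.293 and 0.342 RPKM in controls 2, 5 and 9. At the implied depth these are about 73, 81 and 254 reads in the mutant and 73, 62 and 65 reads in the control hearts, so the counting error is 6.3% to 12.7% of a value. Mutant 10 had about 3.13 times the value of mutant 5. Klf1 reached 1 RPKM in 1 heart and did not enter the test, which asked for 3. Without the filter on low values its log2 change was 0.27 ± 0.15 SE (limma adjusted p = 0.52). It is in the table through the mutant hearts, whose geometric mean of 0.567 RPKM passed the floor of 0.5 RPKM that the table was found to have in at least 1 genotype, against 0.331 RPKM in control hearts. A gene at the control level in both genotypes would not be listed, so the comparison of Klf1 between genotypes is not an unbiased test.

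The spread of the members within a genotype can be set beside that of all genes. The range over the 3 mutant hearts on the log2(RPKM + 1) scale was wider than that over the 3 control hearts in all 7 tested members, against 56.9% of tested genes. The median range of these 7 members was 1.05 in mutant and 0.30 in control hearts, and that of all tested genes 0.25 in mutant and 0.23 in control hearts. Of the 7 members 4 (Hba-x, Hbb-bh1, Hba-a2 and Slc4a1) had a range over 1 in mutant hearts and 0 in control hearts, against 1.84% and 0.963% of all genes. The members are red cell genes measured in the same hearts and libraries, so these are not separate observations, and no test of the spread was made. Klf1 is left out of these counts because it is listed through its mutant values. The adult beta globins, which are not members, had ranges of 0.79 (Hbb-b1) and 0.39 (Hbb-b2) in mutant hearts, against 0.55 and 0.34 in control hearts. The genes set beside the members were not matched to them for level.

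**Figure D2:**
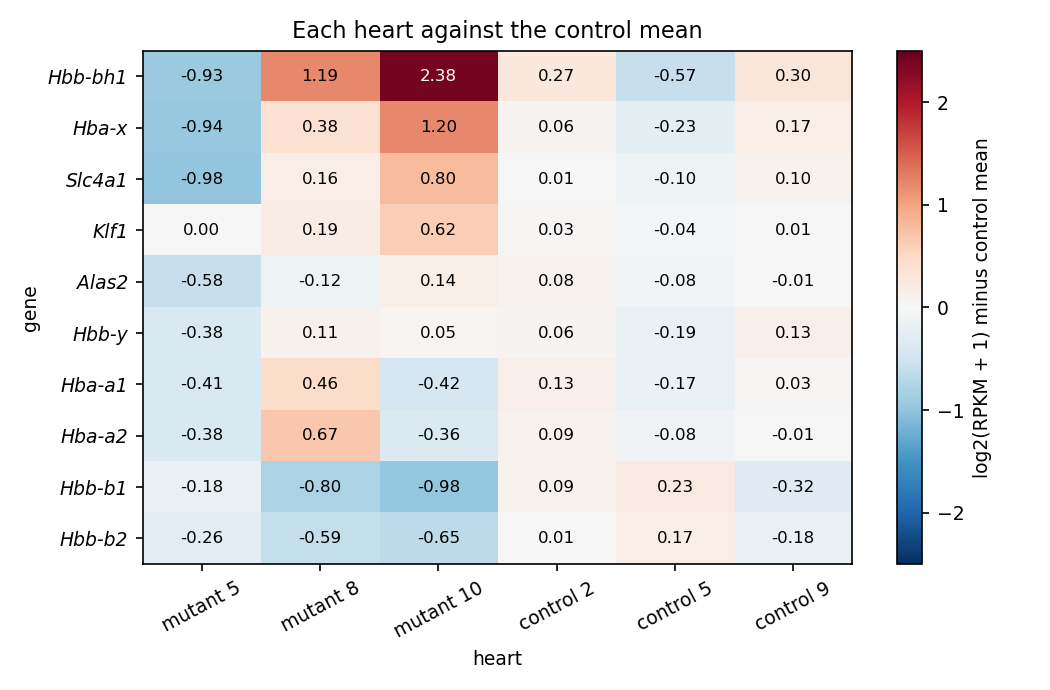
Log2(RPKM + 1) of each heart minus the mean of the control hearts, for the 8 members and both adult beta globins (rows), with mutant hearts left of control hearts and each difference written in its cell. Mutant 5 is below the control mean in every row but Klf1 (0.003), mutant 10 is high for Hbb-bh1 (2.38), Hba-x (1.20) and Slc4a1 (0.80) and low for Hbb-b1 (−0.98), and mutant 8 is high for Hba-a2 (0.67).

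Embryonic and adult-type globins were then compared within each heart, as a ratio that cancels the heart's overall globin level. The 3 embryonic globins summed to 3520, 5201 and 5454 RPKM in mutants 5, 8 and 10, and to 4899, 4082 and 5162 RPKM in controls 2, 5 and 9. Hba-a1 and Hba-a2 together summed to 8184, 15839 and 8186 RPKM in mutants 5, 8 and 10, and to 11648, 9859 and 10906 RPKM in controls 2, 5 and 9. The embryonic share of these 5 globins was thus 30.1%, 24.7% and 40.0% in mutants 5, 8 and 10, and 29.6%, 29.3% and 32.1% in controls 2, 5 and 9. Mutant 10 lay above and mutant 8 below all control hearts. The means were 31.6 ± 7.74% in mutant and 30.3 ± 1.56% in control hearts (SD, n = 3 each). The log2 ratio of embryonic to adult-type globin differed by 0.06 between the genotypes (exact permutation test, two-sided p = 0.80), where 3 hearts against 3 cannot give a p below 0.10. Without mutant 10 the difference was −0.21. Hbb-y makes up most of the embryonic sum. With each gene weighted equally, as the difference of mean log2(RPKM + 1), embryonic minus adult-type globins differed by 0.41 between the genotypes (exact permutation test, two-sided p = 0.90). With the adult beta genes added to the adult sum the log2 ratio differed by 0.12 (exact permutation test, two-sided p = 0.90).

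Within the alpha class Hba-x made up 2.01%, 2.60% and 8.35% in mutants 5, 8 and 10, and 2.82%, 2.73% and 3.24% in controls 2, 5 and 9. Only mutant 10 lay above the control hearts, and both other mutant hearts lay below them. The log2 ratio of Hba-x to Hba-a1 plus Hba-a2 was −4.76 ± 1.15 in mutant and −5.05 ± 0.14 in control hearts (SD, n = 3 each, exact permutation test, two-sided p = 1.0). Without mutant 10 the difference of 0.29 became −0.36.

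Both adult beta globins had lower means in mutant hearts, and neither passed the threshold. They carry the symbols Hbb-b1 and Hbb-b2 in the table and are named Hbb-bs and Hbb-bt for the same identifiers in GENCODE M21, the gene pair of the reference strain. Hbb-b1 (ENSMUSG00000052305, chr7:103826534-103828096) measured 924, 604 and 533 RPKM in mutants 5, 8 and 10, and 1114, 1233 and 844 RPKM in controls 2, 5 and 9. Mutant 5 overlapped the control hearts, and mutants 8 and 10 lay below them. The log2 change was −0.65 ± 0.21 SE (limma adjusted p = 0.28, with 0.043 to 0.66 over the settings), and of the settings tried it passed without mutant 5 alone, at −0.89. Hbb-b2 (ENSMUSG00000073940, chr7:103812524-103813996) measured 662, 524 and 506 RPKM in mutants 5, 8 and 10, and 796, 889 and 701 RPKM in controls 2, 5 and 9. All mutant hearts lay below all control hearts, as in 9.43% of tested genes, and the log2 change was −0.50 ± 0.14 SE (limma adjusted p = 0.19, with 0.0649 to 0.53 over the settings). Of the 50-base stretches of Hbb-bs 65.8% are also in Hbb-bt, so the split between them is uncertain, and which adult beta haplotype these Black-Swiss embryos carry was not tested.

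Against these adult genes, Hbb-y and Hbb-bh1 together made up a larger share of the beta class by value in mutants 8 and 10. The adult genes held 32.1%, 19.1% and 18.1% of beta-type RPKM in mutants 5, 8 and 10, and 29.5%, 35.8% and 24.4% in controls 2, 5 and 9. Mutant 5 lay among the control hearts. Hbb-bh1 held 0.492%, 1.85% and 4.37% in mutants 5, 8 and 10, and 0.886%, 0.531% and 0.922% in controls 2, 5 and 9. The log2 ratio of embryonic to adult beta-type globin was 1.78 ± 0.61 in mutant and 1.24 ± 0.40 in control hearts (SD, n = 3 each, exact permutation test, two-sided p = 0.30). Leaving out a heart kept the difference between 0.34 and 0.89.

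**Figure D3:**
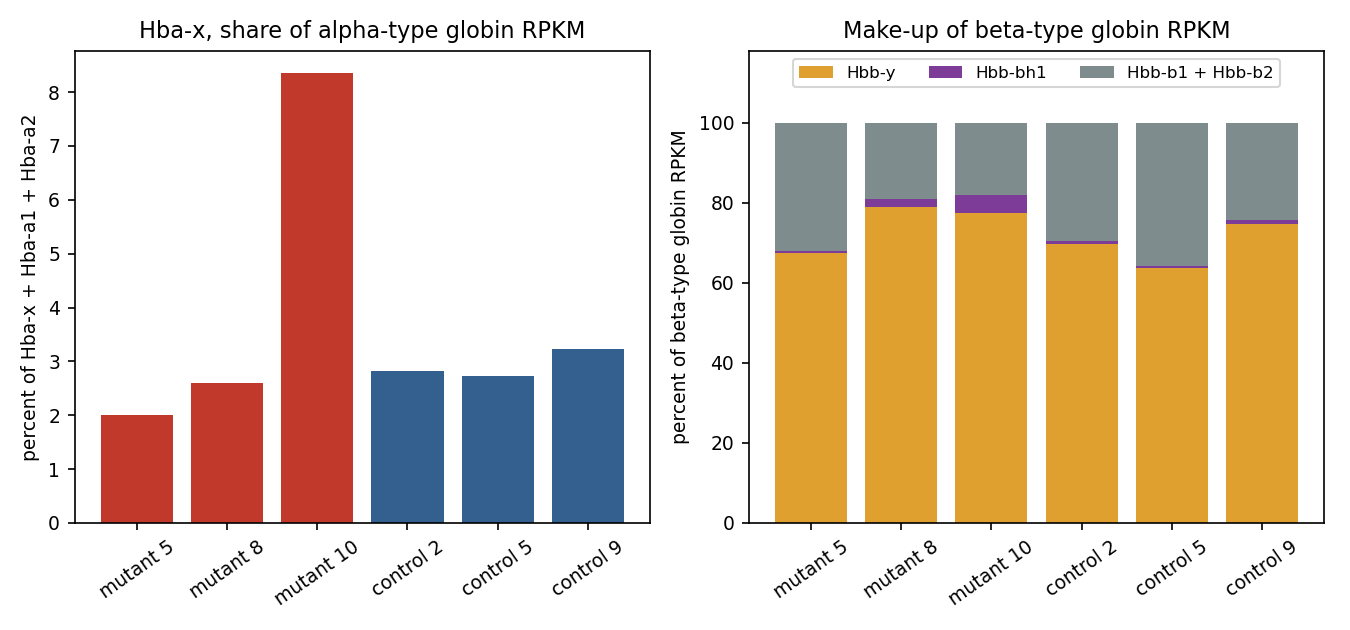
Share of Hba-x in alpha-type globin RPKM (left, percent of Hba-x, Hba-a1 and Hba-a2) and make-up of beta-type globin RPKM (right, percent), with 1 bar for each heart and mutant hearts left of control hearts. Mutant 10 stands alone at 8.35% Hba-x, and the adult beta genes take 18.1% and 19.1% in mutants 10 and 8 and at least 24.4% in the other hearts.

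The summed level of the 5 globin members was 11705, 21039.7 and 13639.9 RPKM in mutants 5, 8 and 10, and 16547, 13941 and 16067 RPKM in controls 2, 5 and 9. Mutants 5 and 10 lay below and mutant 8 above all control hearts. On the log2 scale the genotypes differed by −0.05 (exact permutation test, two-sided p = 0.90). The globin members were 3.31%, 5.80% and 3.93% of all RPKM in mutants 5, 8 and 10, and 4.63%, 4.16% and 4.67% in controls 2, 5 and 9. Mean log2(RPKM + 1) of Alas2, Slc4a1 and Klf1 minus that of the globin members was −7.86 ± 0.30 in mutant and −7.71 ± 0.15 in control hearts (SD, n = 3 each, exact permutation test, two-sided p = 0.60). Klf1 enters this difference of −0.15 although it is listed through its mutant values, and without Klf1, a choice made after seeing the data, the difference was −0.27 (exact permutation test, two-sided p = 0.10, the smallest that 3 hearts against 3 can give). Mutant 10 had the highest Hba-x, Hbb-bh1, Alas2 and Slc4a1 of the 6 hearts, and its globin sum was below that of each control heart.

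The other genes of red cell formation were followed in 7 lists, of which 70 different genes were tested. A single one passed the threshold (1.43%, against 0.818% of all genes), and 10 had an unadjusted p under 0.05, against 11.2% of all genes. In 14 (20.0%) the genotypes did not overlap, against 17.0% of all genes. The same 0.818% and 11.2% are the shares to set beside the counts of each list below. Of the 70 log2 changes 34 were positive, and their median was 0.00. The gene that passed was Bnip3l, a mitophagy receptor that clears mitochondria from maturing red cells and is also made in many other cells. Bnip3l fell to 27.9, 20.9 and 24.2 RPKM in mutants 5, 8 and 10, against 43.5, 37.0 and 38.0 RPKM in controls 2, 5 and 9 (log2 change −0.68 ± 0.12 SE, limma adjusted p = 0.044). It did not pass after median centring (adjusted p = 0.070) or without any single heart other than mutant 5 (0.081 to 0.19).

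**Figure D4:**
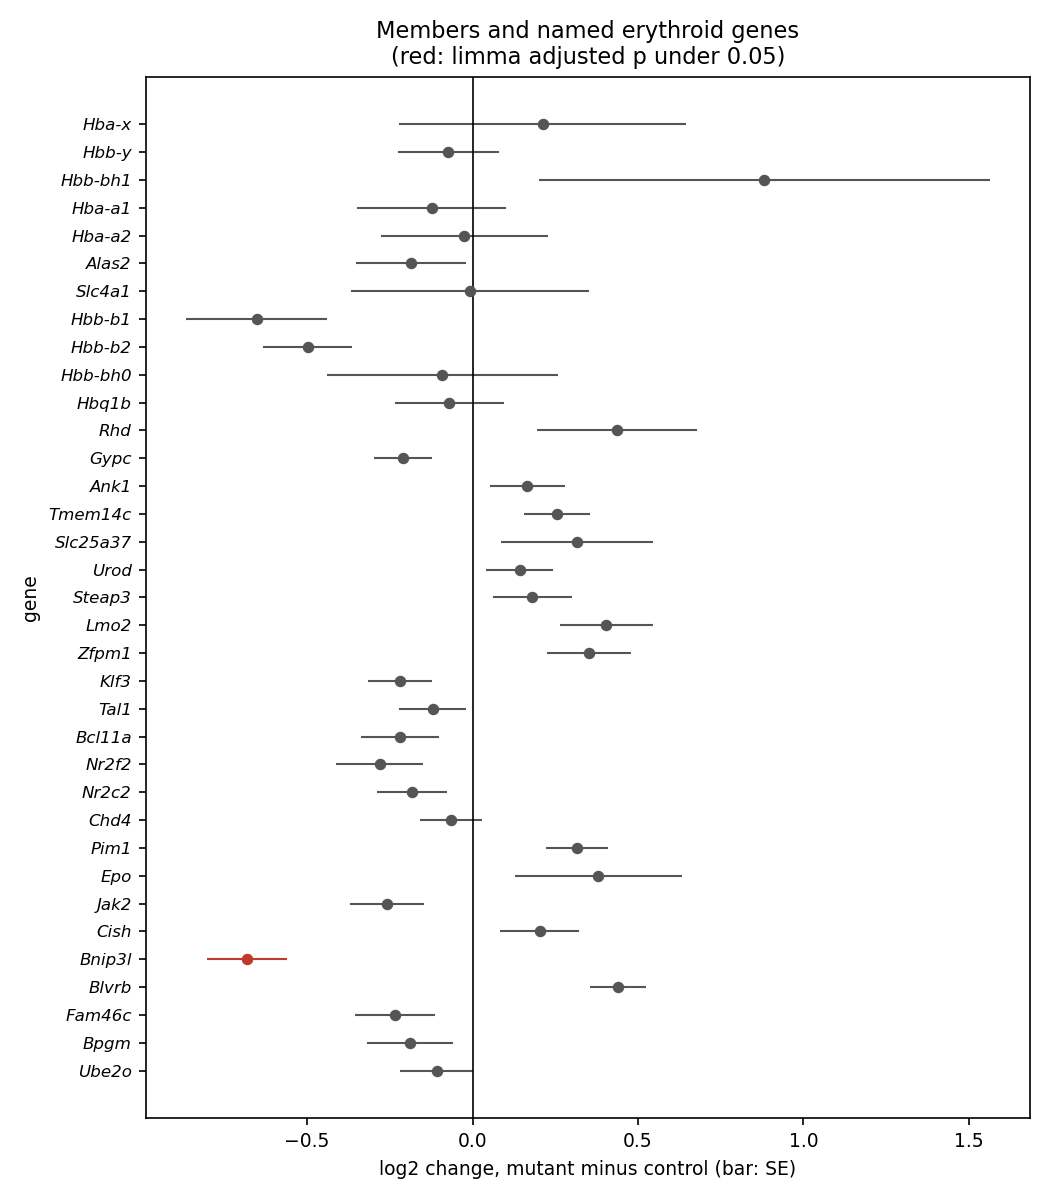
Log2 change (mutant minus control, on log2(RPKM + 1)) with its SE for the tested members, the other globin genes and the named genes of the erythroid lists, n = 3 hearts each. Bnip3l (−0.68), in red, is the gene past an adjusted p of 0.05, and the members and other globins, in grey, are not past it.

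Of the genes of the red cell membrane and skeleton described here, Rhd and Ank1 were highest in mutant 10 and Gypc was not. Rhd, a blood group membrane protein, measured 0.804, 1.71 and 3.01 RPKM in mutants 5, 8 and 10, and 0.848, 1.08 and 1.06 RPKM in controls 2, 5 and 9 (limma adjusted p = 0.55). The widely made Gypc (glycophorin C) averaged 8.23 RPKM in mutant and 9.67 RPKM in control hearts, and the skeletal anchor Ank1 2.16 RPKM in mutant and 1.81 RPKM in control hearts. None of 12 tested genes of this list passed in limma and 1 had an unadjusted p under 0.05. The list's median against the control mean was −0.19, 0.06 and 0.39 in mutants 5, 8 and 10, with a span of −0.04 to 0.04 among control hearts.

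Genes of haem synthesis and iron uptake had 0 of 16 past the threshold in limma and 1 with an unadjusted p under 0.05. That gene, Tmem14c, a mitochondrial membrane protein needed for haem synthesis, averaged 81.2 RPKM in mutant and 67.9 RPKM in control hearts (adjusted p = 0.39). The mitochondrial iron importer Slc25a37 measured 3.17, 3.65 and 7.44 RPKM in mutants 5, 8 and 10, and 3.19, 3.54 and 3.47 RPKM in controls 2, 5 and 9, and so was high in mutant 10 alone (adjusted p = 0.64). Urod, an enzyme of the middle of the haem pathway, averaged 27.4 RPKM in mutant and 24.7 RPKM in control hearts, and the ferrireductase Steap3 2.95 RPKM in mutant and 2.46 RPKM in control hearts. The list's median was 0.10, with 11 of 16 positive.

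Among erythroid transcription factors none of 8 tested passed in limma and 2 had an unadjusted p under 0.05. Lmo2, a bridging protein of the blood and endothelial TAL1 complex, averaged 9.73 ± 2.04 RPKM in mutant and 7.01 ± 0.27 RPKM in control hearts (adjusted p = 0.33). Zfpm1, the GATA cofactor FOG1, averaged 9.73 ± 1.20 RPKM in mutant and 7.42 ± 1.04 RPKM in control hearts (SD, n = 3 each, adjusted p = 0.34). Tal1 averaged 1.88 RPKM in mutant and 2.13 RPKM in control hearts, and the repressor Klf3 5.47 RPKM in mutant and 6.53 RPKM in control hearts. Several of these genes are also made by endothelial or heart muscle cells.

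Regulators of the switch between globin types had 0 of 9 past the threshold in limma and 0 with an unadjusted p under 0.05. The repressor Bcl11a averaged 1.24 RPKM in mutant and 1.59 RPKM in control hearts (limma adjusted p = 0.53), the nuclear receptor Nr2c2 3.77 RPKM in mutant and 4.40 RPKM in control hearts, Nr2f2 2.30 RPKM in mutant and 3.03 RPKM in control hearts, and the chromatin remodeller Chd4 37.0 RPKM in mutant and 38.7 RPKM in control hearts. In the erythropoietin pathway none of 8 passed and 2 had an unadjusted p under 0.05. The kinase Pim1 averaged 8.41 ± 0.10 RPKM in mutant and 6.58 ± 0.52 RPKM in control hearts (SD, n = 3 each, limma adjusted p = 0.24), and the receptor kinase Jak2 4.34 RPKM in mutant and 5.36 RPKM in control hearts (adjusted p = 0.44). The feedback inhibitor Cish averaged 2.48 RPKM in mutant and 2.03 RPKM in control hearts.

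Late erythroid genes and red cell enzymes had Bnip3l as the 1 of 13 past the threshold. Blvrb, biliverdin reductase B, averaged 19.4 ± 0.47 RPKM in mutant and 14.0 ± 0.40 RPKM in control hearts (SD, n = 3 each, limma adjusted p = 0.054), and passed after median centring (0.049) and with a minimum of 5 RPKM (0.044). Bpgm, which makes the oxygen affinity regulator of red cells, measured 9.82, 14.1 and 13.4 RPKM in mutants 5, 8 and 10, and 14.4, 14.0 and 14.2 RPKM in controls 2, 5 and 9 (adjusted p = 0.62). Mutant 5 was the low heart, as for Alas2. Fam46c averaged 1.71 RPKM in mutant and 2.17 RPKM in control hearts, and Ube2o, which helps remodel the proteome of reticulocytes, 4.77 RPKM in mutant and 5.20 RPKM in control hearts. Of the other globin genes 4 were tested, 0 passed in limma, 2 had an unadjusted p under 0.05 (Hbb-b1 and Hbb-b2), and 0 had a positive change. The minor globin Hbq1b averaged 1.02 RPKM in mutant and 1.11 RPKM in control hearts. The beta-globin pseudogene Hbb-bh0 measured 19.0, 20.2 and 6.22 RPKM in mutants 5, 8 and 10, and 14.7, 13.6 and 15.2 RPKM in controls 2, 5 and 9, so that mutant 10 was its lowest heart, unlike Hbb-bh1.

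Of the haem breakdown and iron genes 1 of 6 passed, the haem oxygenase Hmox1, which rose to 18.9, 22.1 and 13.9 RPKM in mutants 5, 8 and 10, against 6.60, 8.13 and 7.06 RPKM in controls 2, 5 and 9 (log2 change 1.20 ± 0.16 SE, limma adjusted p = 0.011, and 0.052 without control 2). Among mutant hearts mutant 10 was the lowest for Hmox1. The iron exporter Slc40a1 averaged 2.34 RPKM in mutant and 2.99 RPKM in control hearts, and the ferritin light chain Ftl1 679 RPKM in mutant and 562 RPKM in control hearts. Ferritin heavy chain Fth1 averaged 227 RPKM in mutant and 222 RPKM in control hearts, and Blvra 10.1 RPKM in mutant and 9.72 RPKM in control hearts.

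Mutant 10 was also the highest heart for the sum of megakaryocyte and platelet markers and the lowest for that of macrophage markers. Megakaryocyte and platelet markers (8 of 11 in the table, 4 tested, none past the threshold in limma or at an unadjusted p of 0.05) summed to 11.4, 15.4 and 29.7 RPKM in mutants 5, 8 and 10, and to 14.2 to 16.3 RPKM in control hearts. Their gene Pf4 measured 5.88, 8.42 and 16.3 RPKM in mutants 5, 8 and 10, and 7.82, 7.32 and 9.43 RPKM in controls 2, 5 and 9. The platelet gene Ppbp measured 1.35, 1.79 and 5.30 RPKM in mutants 5, 8 and 10, and 1.88, 1.05 and 1.40 RPKM in controls 2, 5 and 9. The integrins Itga2b and Itgb3 averaged 1.77 and 1.26 RPKM in mutant and 1.67 and 1.40 RPKM in control hearts. Gp1ba, in the megakaryocyte and platelet sums, is listed through its control values. Macrophage markers (13 of 15 in the table, 12 tested, none past the threshold in limma) summed to 37.4, 33.0 and 15.4 RPKM in mutants 5, 8 and 10, and to 43.6 to 52.0 RPKM in control hearts. Each mutant sum was below that of each control heart. Of the 12 tested 10 had an unadjusted p under 0.05, against 11.2% of all genes. Their members Mrc1, Fcer1g, Cx3cr1 and Lyz2 averaged 2.74, 2.86, 0.835 and 4.91 RPKM in mutant hearts, and 5.90, 5.11, 1.76 and 7.15 RPKM in control hearts. Without mutant 5, Mrc1 (limma adjusted p = 0.021) and Fcer1g (0.037) passed the threshold. The part of these cell types in the values of the red cell genes was not tested.

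Fetal liver, the site of definitive red cell formation at this stage, was followed by its own markers. Of these 3 of 10 were in the table, with sums of 2.5 to 4.2 RPKM in mutant and 2.1 to 5.7 RPKM in control hearts. Afp in these sums is listed through its control values. Apoa2, the single one tested, averaged 2.22 RPKM in mutant and 1.42 RPKM in control hearts (limma adjusted p = 0.33). Of 11 further markers of leukocytes and progenitors 4 were in the table, with sums of 17.1 to 20.3 RPKM in mutant and 24.6 to 31.6 RPKM in control hearts. Ptprc, Prtn3 and S100a8 in these sums are listed through their control values, as their mutant geometric means are below the floor of 0.5 RPKM. Nearly all of each sum is Cd34 (17.8 RPKM in mutant and 25.3 RPKM in control hearts, limma adjusted p = 0.14), which endothelial cells also make. Endothelial markers (13 tested) had none past the threshold in limma and 5 at an unadjusted p under 0.05, against 11.2% of all genes. They summed to 168 to 181 RPKM in mutant and 176 to 196 RPKM in control hearts. Of the 13 log2 changes 3 were positive. Cdh5, Kdr, Flt1 and Cldn5 averaged 16.0, 6.05, 1.98 and 1.08 RPKM in mutant hearts, and 19.5, 7.89, 2.51 and 2.57 RPKM in control hearts. Plvap, the other gene at an unadjusted p under 0.05, was higher in mutant hearts (15.8 RPKM, against 12.3 RPKM in control hearts). Cldn5 (limma adjusted p = 0.064) passed when libraries were rescaled outside haemoglobin (0.036), with a robust prior (0.042) and without mutant 5 (0.025). Of the 12 heart muscle markers Nppa passed (1740.2 RPKM in mutant and 1036 RPKM in control hearts, limma adjusted p = 0.012), though not without mutant 10 (0.071) or control 5 (0.069). The next in this list were Myl7, Myl4, Actc1 and Nkx2-5. They averaged 2066, 1150.2, 4631 and 23.5 RPKM in mutant hearts, and 1550.3, 951, 3833 and 18.4 RPKM in control hearts. Of the 12 log2 changes in this list 7 were positive, with a median of 0.11, and the others were negative.

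The genes whose pattern over the 6 hearts was most like the mean of the members were then listed. Among 9198 other genes with a mean log2(RPKM + 1) of at least 2, the 10 with the highest Pearson correlation (0.953 to 0.994 over 6 hearts) were Myl12b, Ergic1, 2610034B18Rik, Carm1, Rbpms, Rfxap, Hmga1, Sf3b4, Gm20460 and Sf3a1. Myl12b, a regulatory light chain of non-muscle myosin, measured 33.6, 44.1 and 45.8 RPKM in mutants 5, 8 and 10, and 40.7, 36.6 and 39.6 RPKM in controls 2, 5 and 9. Hmga1, a chromatin protein of proliferating cells, measured 55.9, 89.4 and 93.9 RPKM in mutants 5, 8 and 10, and 67.4, 68.3 and 73.2 RPKM in controls 2, 5 and 9. The 6 points share their libraries with the members, and these correlations are a description. They are the highest of 9198 over only 6 points and were not tested against chance. The mean of the members here includes Klf1.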

How the data were processed

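RNA from 6 whole E12.5 hearts was sequenced, 3 of each Hif1a genotype. Reads were trimmed with Trim Galore and aligned with TopHat2 to mm10, per the submitters' processing notes. The read counter, annotation and strand setting are not named in these notes or the labels. RPKM values, linear and 1 per gene and heart, were made by the authors and deposited as a single table. The unit was read from the values because its header gives none. In single-exon genes 89.0% to 96.4% of low values fell within 0.1 of a whole multiple of a step, against 19.3% to 19.9% (medians) for other steps, and the steps gave the implied reads.

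Values were taken as log2(RPKM + 1), and 13080 genes reaching 1 RPKM in 3 or more hearts were fitted with R 4.3.3 and limma 3.58.1 (trended prior, all 6 hearts, no covariates) and called at a Benjamini-Hochberg adjusted p under 0.05 over all genes tested. Values per heart were compared with exact two-sided permutation tests (scipy 1.17.1, Python 3.11.15). Figures were drawn with matplotlib 3.10.9. The limma fit was tested on simulated data, and the permutation test on a constructed case of fully separated groups. Gene positions are from GENCODE M21, which held 14877 of the identifiers, and promoters from RefSeq.

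Members and lists were chosen with earlier results of these data known. Named are the members, the adult beta globins, in each of 14 lists the genes past the threshold and up to 4 others with the smallest p, and the 10 genes most like the members. Plvap was added to these after its values were seen. Alternatives were median centring, rescaling without haemoglobin genes, other filters, pseudocounts and variance priors, and leaving out each heart. Of 79 erythroid list genes in the table, 70 were tested. A gene that the naming rule selects is not reported here.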

Additional observations from a re-analysis of the deposited data

How the results depend on the processing

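No paired analysis was possible because the genotypes share the number 5 alone. Leaving out a heart moved the number of genes called over the whole table to between 45 and 198, and the number of members called to between 0 and 1 (Hbb-bh1 without mutant 5). The difference of the log2 ratio of embryonic to adult-type globins then lay between −0.21 and 0.30, that of the alpha class between −0.36 and 0.71, that of the non-globin members against the globins between −0.27 and 0.02, and that of the summed globins between −0.29 and 0.13. Log2 changes that turned round when a heart was left out ranged from −0.28 to 0.79 for Hba-x, −0.17 to 0.079 for Hbb-y, −0.42 to 0.026 for Hba-a1, −0.37 to 0.15 for Hba-a2, −0.35 to 0.011 for Alas2, −0.41 to 0.48 for Slc4a1, −0.36 to 0.41 for Hbb-bh0, −0.23 to 0.027 for Hbq1b, −0.043 to 0.13 for Fth1, −0.15 to 0.20 for Itga2b, −0.21 to 0.011 for Itgb3 and −0.18 to 0.48 for Pf4. Median centring gave 0.010 for Hba-a2 and 0.027 for Slc4a1, a pseudocount of 5 gave 0.035 for Slc4a1, and rescaling to the total outside haemoglobin gave −0.015 for Fth1. Lower genes numbered 34 with median centring and 79 with that rescaling, against 52, and the causes were not tested. Genes called in the erythroid lists numbered 2 with a minimum of 5 RPKM, against 1, and 0 to 2 when a heart was left out. Settings that kept all hearts left 450 values of named genes with the same sign and on the same side of the threshold. A further 4 turned round without passing it, 4 were newly past it, 1 was no longer past it and 1 moved (Klf1, 0.65 with a pseudocount of 0.1). Klf1, which did not enter the test, was judged only by how far its change lay from the main value. Its value with a pseudocount of 5 is among the 450. Of the choices made after seeing the data, including the adult beta genes in the globin sum gave −0.09, and leaving Klf1 out of the non-globin members gave −0.27. Counting errors of 6.3% to 12.7% limit the values of Klf1.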

Other observations

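The balance of alpha-type and beta-type globin, chosen after its values were seen, set mutant 8 apart. All alpha-type RPKM over all beta-type RPKM was 1.69, 2.75 and 1.55 in mutants 5, 8 and 10, and 1.85, 1.71 and 1.78 in controls 2, 5 and 9. The means were 2.00 ± 0.66 in mutant and 1.78 ± 0.07 in control hearts (SD, n = 3 each), and the log2 ratios differed by 0.12 (exact permutation test, two-sided p = 1.0). Hbb-bh1 against Hbb-y, which the maturing primitive red cell exchanges, had log2 ratios of −7.10, −5.42 and −4.15 in mutants 5, 8 and 10, and −6.30, −6.91 and −6.34 in controls 2, 5 and 9 (difference 0.96, exact permutation test, two-sided p = 0.40).

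The erythropoietin gene Epo was measurable in every heart. It had 21.7, 45.7 and 26.5 RPKM in mutants 5, 8 and 10, and 17.6, 24.4 and 27.0 RPKM in controls 2, 5 and 9. Mutant 8, the heart with the most adult alpha globin, was also highest for Epo, a pairing made after the values were seen. Its adult beta globins summed to 1128 RPKM, below each control heart. Of all tested genes 17.5% were highest and 36.0% lowest in mutant 8. A link between Epo and globin levels was not tested. The genotypes overlapped for Epo (log2 change 0.38 ± 0.25 SE, limma adjusted p = 0.61).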
